A study of Mus musculus with 8 samples.

Results

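The genes described are 10 components of Toll-like receptor (TLR) signalling, from a co-receptor for the ligand to the proteins that connect the receptor with the kinases of the NF-κB and MAP kinase cascades. They are the co-receptor Ly96, the adaptors Myd88, Tirap, Ticam1 and Ticam2, the kinases Irak2, Irak3 and Irak4 of the interleukin-1 receptor-associated kinase (IRAK) family, and the ubiquitin ligases Traf3 and Traf6 of the TNF receptor-associated factor (TRAF) family. They were chosen by gene name, and all 10 were found among the 55801 gene rows of the expression table. RNA was sequenced from macrophages flushed from the peritoneum of young adult male C57BL/6 mice after an injection of thioglycollate, an irritant broth that recruits these cells. Macrophages received the solvent DMSO (NC), LPS, the compound C498 or C498 followed by LPS (C498+LPS), with 2 samples per group and 8 in all. C498, a screening hit that the study describes as an inhibitor of JAK/STAT and NF-κB signalling, was given at 15 µM, and vehicle or C498 preceded the addition of LPS by 0.5 h. LPS, the cell wall component of Gram-negative bacteria that TLR4 recognises, was given at 100 ng/ml for 4 h. All groups share this elicitation model, and no source used here says whether the 2 samples of a group came from separate cultures or animals, so p-values measure only the spread between these samples, which may be technical.

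TLR4 binds LPS together with MD-2, the product of Ly96, and then recruits adaptors that carry the same type of interaction domain as the receptor. At the plasma membrane, TIRAP brings in MYD88, which assembles with IRAK4 and IRAK2 and passes the signal to TRAF6, while from endosomes TRAM, the product of Ticam2, brings in TRIF, the product of Ticam1, which engages TRAF3 and the interferon branch. IRAK3, also called IRAK-M, lacks normal kinase activity and is best known as a brake on this pathway in macrophages that have met LPS.

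Levels are given in TPM, a unit in which reads are divided by transcript length and each sample is scaled to a common total, so levels can be compared between genes but the number of reads behind a value is unknown. Differences between groups are log2 changes on the scale log2(TPM + 1), from a limma model fitted to the 12189 genes with a mean of at least 1 TPM, and a gene was said to have risen or fallen when its Benjamini-Hochberg adjusted p was at most 0.05. All 10 genes passed the filter on low levels. All 8 macrophage markers examined had a mean of at least 1 TPM, and their summed level was 19864 to 20384 TPM in NC, 16603 to 17239 in LPS, 15281 to 15439 in C498 and 10644 to 12436 in C498+LPS. Most of that sum was Lyz2, with means of 15986.5, 13225, 11497 and 8536 TPM in the same order, so the sum mainly follows this gene. The summed level of 5 fibroblast markers was 150.2 to 192 TPM in NC, 176 to 200.5 in LPS, 633 to 750 in C498 and 618 to 911 in C498+LPS. In bulk RNA, fewer cells of a type and less RNA per cell cannot be told apart. The first replicate had the higher level for 8 of the 10 genes in NC and for 9 of 10 in each of the other groups, against 51.3 to 70.2% of all tested genes.

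LPS alone raised 3 of the 10 transcripts, Myd88, Irak3 and Irak2, and lowered none of them. C498 given before LPS left the same 3 transcripts lower than LPS alone did, and C498 by itself moved none of the 10 past the test. For the 3 genes that rose with LPS, the bases just upstream of the transcription starts are shown first, read from RefSeq on GRCm38.p6, each 250 bases long and 5′ to 3′ on the strand of the gene. Capitals mark matches to a STAT-type motif (TTCNNNGAA), an interferon-type motif (GAAANNGAA) or both where they overlap, and Irak3 has 2 annotated starts. The Myd88 window precedes the RefSeq start. It lies within the span of the gene in another annotation, GENCODE M21 (119335934 to 119341411), and not upstream of that span.
Myd88, chr9:119340019-119340268, minus strand: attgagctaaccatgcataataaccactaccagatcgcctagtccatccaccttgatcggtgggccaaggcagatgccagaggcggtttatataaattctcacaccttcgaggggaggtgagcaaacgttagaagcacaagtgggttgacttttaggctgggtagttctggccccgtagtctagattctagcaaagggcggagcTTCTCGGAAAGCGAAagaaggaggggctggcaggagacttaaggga
Irak2, chr6:113638217-113638466, plus strand: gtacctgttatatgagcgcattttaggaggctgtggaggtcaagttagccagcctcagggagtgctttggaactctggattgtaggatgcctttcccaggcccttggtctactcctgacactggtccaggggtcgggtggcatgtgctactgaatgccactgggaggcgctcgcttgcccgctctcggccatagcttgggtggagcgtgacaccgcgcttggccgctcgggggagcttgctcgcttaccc
Irak3, inner start, chr10:120201598-120201847, minus strand: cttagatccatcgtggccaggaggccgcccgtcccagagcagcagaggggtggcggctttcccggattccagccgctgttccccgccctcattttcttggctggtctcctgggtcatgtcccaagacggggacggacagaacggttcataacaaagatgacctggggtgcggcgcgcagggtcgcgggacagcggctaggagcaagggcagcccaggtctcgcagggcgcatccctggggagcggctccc
Irak3, outer start, chr10:120202131-120202380, minus strand: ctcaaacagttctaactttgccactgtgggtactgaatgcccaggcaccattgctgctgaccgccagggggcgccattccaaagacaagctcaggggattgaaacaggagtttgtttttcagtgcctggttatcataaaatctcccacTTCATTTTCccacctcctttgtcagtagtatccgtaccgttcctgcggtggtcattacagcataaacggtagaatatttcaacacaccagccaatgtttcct

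Both strands were searched for these motifs, for the NF-κB consensus and for an AP-1 motif (TGANTCA). For Myd88, TTCTCGGAA lay 46 to 38 bases before the RefSeq start and GAAAGCGAA 40 to 32 bases before it, so the 2 matches share bases. The outer start of Irak3 had TTCATTTTC, the interferon-type motif on the opposite strand, 102 to 94 bases upstream, whereas the inner start of Irak3 and the single start of Irak2 had no match. Among the other promoters read, only that of Traf3 held a match, an NF-κB consensus (GGGGATTTCC) in the 10 bases next to the start. Of 32851 RefSeq promoters of this length, 7.02% held the STAT-type motif, 7.13% the interferon-type motif, 7.25% the NF-κB consensus and 6.75% the AP-1 motif. A match describes letters and was not tested as a binding site. Promoters were read for 8 of the 10 genes.

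In vehicle-treated cells, Myd88 was the most abundant of the set, with a mean of 74.0 TPM, higher than 89.3% of tested genes when averaged over all groups. Irak2, Irak3 and Ly96 followed, between 39.5 and 34.3 TPM, and their samples overlapped in that order. Irak4, Ticam2, Ticam1 and Traf3 lay between 19.2 and 12.1 TPM and each overlapped its neighbour in the order. Traf6 at 7.44 TPM and Tirap at 5.17 TPM were lowest, and again their samples overlapped. Under LPS the order of the leading transcripts separated, with Myd88 at 177 TPM, Irak3 at 97.3, Irak2 at 74.3 and Ly96 at 32.0, and no sample of one overlapped a sample of the next.

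**Figure D1:**
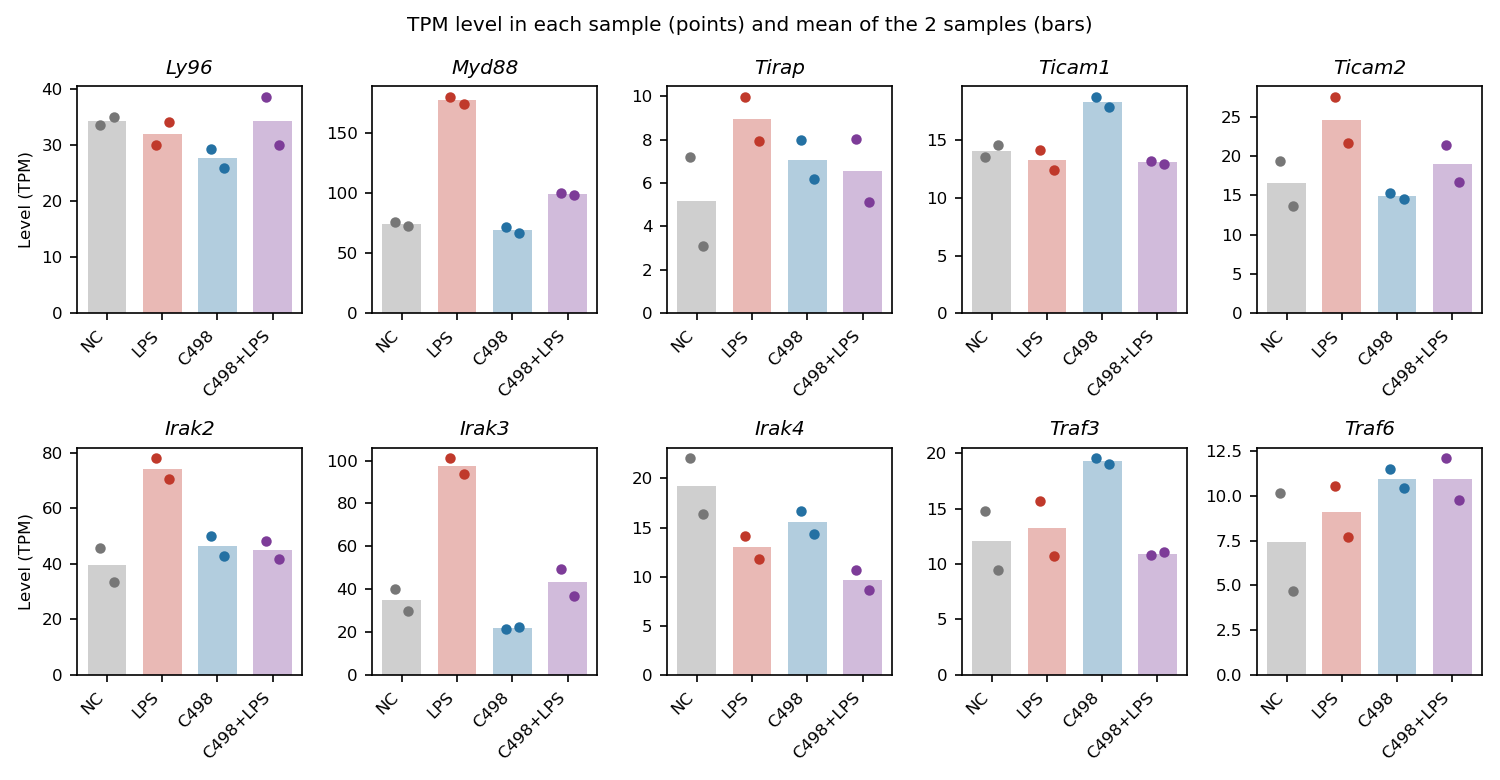
TPM level of each of the 10 genes (y axis, linear, from 0, one scale per gene) in NC, LPS, C498 and C498+LPS (x axis), where points are the 2 samples and bars their mean. Myd88, Irak2 and Irak3 stand out in LPS, and in C498+LPS their bars drop to 99.2, 44.9 and 43.2 TPM.

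The response to LPS was first compared in vehicle-treated cells. Myd88, Irak2 and Irak3 rose, 3 of 10, where 9.84% of all tested genes rose and 19.8% fell, and 5 of the 10 had an unadjusted p under 0.05, as did 41.2% of tested genes. Myd88 and Irak3 also changed at least 2-fold, as did 5.55% of tested genes in the upward direction. The median log2 change of the 10 genes was 0.44, against -0.17 over all tested genes. TPM values are relative to a fixed total, and after centring each sample on its median gene the median of all genes moved from -0.17 to -0.000539, while the number of genes that rose and fell went from 1200 and 2409 to 1775 and 1458. With that scaling 5 of the 10 passed, Tirap and Ticam2 being the additions, and 6 passed without NC replicate 1. In the same comparison 2 of 8 macrophage markers and 0 of 5 fibroblast markers passed the test, the former lower.

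Cells pretreated with C498 were then compared with and without LPS, and here Myd88 and Irak3 rose, 2 of 10, where 4.51% of tested genes rose and 11.7% fell. None of the 10 reached a 2-fold change, and 5 had an unadjusted p under 0.05, as did 31.9% of tested genes. Their median log2 change was -0.03, against -0.18 over all genes, and centring moved the latter to 0.038 and the numbers of all genes that rose and fell from 550 and 1430 to 968 and 649. The number past the test was 5 without NC replicate 1 or NC replicate 2, where the additions Ticam1, Irak4 and Traf3 were all lower, 1 without C498+LPS replicate 2 and 0 without C498 replicate 1, C498 replicate 2 or C498+LPS replicate 1. For Myd88, leaving out C498 replicate 1, C498 replicate 2, C498+LPS replicate 1 or C498+LPS replicate 2 gave an adjusted p of 0.0538, 0.0818, 0.0516 or 0.0513 by limma, with log2 changes of 0.47 to 0.57, and for Irak3 the first 3 of these gave 0.106, 0.101 and 0.0877, with log2 changes of 0.90, 0.95 and 0.72.

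Without LPS, C498 against vehicle gave 0 of 10 past the limma test, where 9.29% of tested genes rose and 6.19% fell, and 3 of the 10, Ticam1, Irak3 and Traf3, had an unadjusted p under 0.05, a share near the 32% of all tested genes that did. Leaving out NC replicate 1 gave 2 of 10 and leaving out NC replicate 2 gave 1. Centring gave 1 of 10, Irak3, and moved the median of all genes from 0.01 to -0.11 and the numbers that rose and fell from 1132 and 754 to 1132 and 1211. With C498 all 5 fibroblast markers and 2 of 3 mesothelial markers tested rose, and 2 of 8 macrophage markers and both neutrophil markers tested, S100a8 and Csf3r, fell. In LPS-treated cells, C498 pretreatment gave 3 of 10 lower and 0 higher, Myd88, Irak2 and Irak3, where 7.7% of tested genes fell and 9.08% rose. Only Irak3 fell at least 2-fold, as did 2.18% of tested genes, and 1 of 10 passed without LPS replicate 1 or without C498+LPS replicate 2. The median log2 change of the 10 was -0.37, against 0.01 over all genes. Centring moved the latter to -0.07 and the numbers of all genes that rose and fell from 1107 and 938 to 1077 and 1304, and the 3 calls held. In the same comparison 4 of 8 macrophage markers fell, Adgre1, Csf1r, Lyz2 and Fcgr1. The list summed to 0.682 times its level in LPS, most of it Lyz2. Cd68, Itgam, Mertk and Mrc1 did not pass, with log2 changes of -0.11, -0.62, -0.34 and 0.26. Of 5 fibroblast markers 4 rose, with a summed level 4.06 times as high. Of 3 mesothelial markers tested 2 rose, and the list summed to 3.94 times the level in LPS. Of 6 neutrophil markers only S100a8 and Csf3r reached a mean of 1 TPM, and Csf3r fell, while S100a9 and Ly6g were at 0 in every NC and LPS sample and Cxcr2 and Mpo were at most 0.1 TPM throughout. Epx, which defines eosinophils, was at 0 in every sample. The B cell, T cell, mast cell, eosinophil and endothelial lists each summed to at most 14.02 TPM in any sample. Their part in the differences of the 10 genes was not tested. The comparisons share groups of samples, so they are not independent of each other.

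The last comparison asked whether the LPS change itself differed with C498. This difference was negative for 9 of the 10 genes, all but Ly96, with a median of -0.46 against -0.03 over all genes, of which 52.9% were negative. It was negative for 6 of 10 without NC replicate 2, where Ticam2, Irak4 and Traf6 turned positive, and for 8 or 9 when any other sample was left out. By limma 0 of 10 passed, where 0.418% of tested genes passed in the lower and 0.0738% in the higher direction. An unadjusted p under 0.05 was seen for 3 of the 10 and for 11.1% of tested genes. Those 3 were Myd88 at -0.73 (SE 0.122, adjusted p = 0.0681), Irak2 at -0.95 (SE 0.238, adjusted p = 0.196) and Traf3 at -0.89 (SE 0.340, adjusted p = 0.405).

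**Figure D2:**
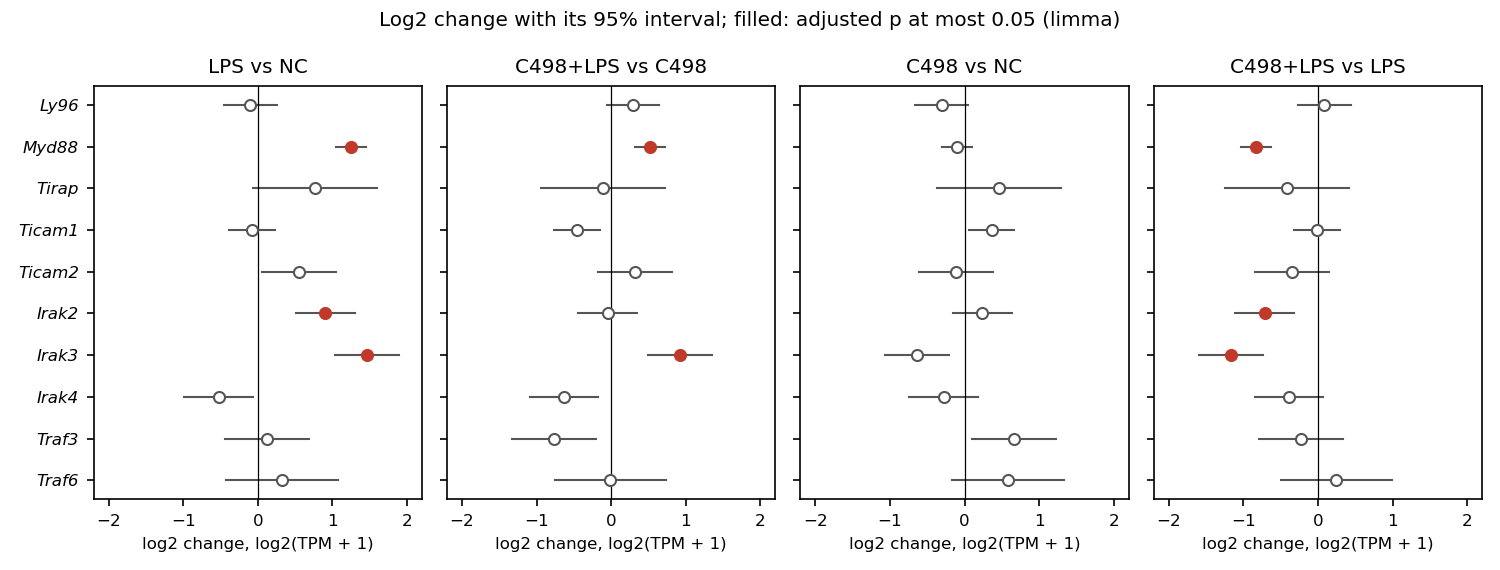
Log2 change of each gene on the log2(TPM + 1) scale (x axis) in 4 comparisons (panels), with bars for the 95% interval of the limma fit and filled points for an adjusted p of at most 0.05. Filled points are seen for Myd88, Irak2 and Irak3 in LPS vs NC and, on the other side of 0, in C498+LPS vs LPS.

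Ly96 encodes MD-2, the protein that holds LPS against TLR4, and lies on chromosome 1 of GRCm38 at 16688051 to 16709611 on the plus strand in GENCODE M21. Its level was 33.6 and 34.98 TPM in the NC samples, 29.9 and 34.1 in LPS, 29.3 and 26.0 in C498, and 38.6 and 29.9 in C498+LPS. The LPS samples overlapped those of NC and of C498+LPS, and the C498 samples were the lowest. The log2 change was -0.10 in LPS vs NC, with a 95% interval of -0.45 to 0.26, and 0.09 in C498+LPS vs LPS, with an interval of -0.27 to 0.44, and neither passed the test. Ly96 was the only one of the 10 whose LPS change was more positive with C498 than without, by 0.39 (95% interval -0.11 to 0.89).

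Tlr4, the receptor that Ly96 serves, was at 27.8 and 15.3 TPM in NC, 14.1 and 12.6 in LPS, 15.98 and 13.95 in C498, and 7.10 and 4.53 in C498+LPS. Both C498+LPS samples were below every other sample. Tlr4 fell by 1.10 on the log2 scale in C498+LPS vs LPS (SE 0.296, limma adjusted p = 0.0446, just under the threshold). It fell by 1.25 in C498+LPS vs C498 (SE 0.296, adjusted p = 0.0312), whereas its change of -0.60 in LPS vs NC did not pass. The ratio of Ly96 to Tlr4 within a sample, which does not depend on how the sample was scaled, was 1.21 and 2.29 in NC, 2.12 and 2.71 in LPS, 1.83 and 1.86 in C498, and 5.43 and 6.60 in C498+LPS. C498+LPS stood apart from the other groups in this ratio. With 2 samples against 2 the exact two-sided permutation test cannot go below p = 0.333, the value reached by C498+LPS against LPS, so no ratio could pass a threshold by that test.

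Myd88 encodes the adaptor shared by most TLRs and by the interleukin-1 receptor. Its level was 75.5 and 72.6 TPM in NC, 179.9 and 174 in LPS, 71.5 and 66.6 in C498, and 100.25 and 98.1 in C498+LPS. Replicates were close in every group, and the C498+LPS samples lay between those of the unstimulated groups and those of LPS without overlap. Myd88 rose by 1.25 on the log2 scale in LPS vs NC (SE 0.0862, limma adjusted p = 0.000108), a mean level 2.39 times that of NC. With C498 present the LPS change was 0.52 (SE 0.0862, adjusted p = 0.00983), a ratio of 1.44. In TPM, LPS added 103 to the vehicle mean and 30.1 to the C498 mean, or 29.3% of the vehicle increment. Against LPS alone, C498+LPS was lower by 44.0%, and Myd88 fell by 0.83 on the log2 scale (SE 0.0862, adjusted p = 0.00156), a call that held in all 16 refits with another setting or without a sample, with log2 changes of -0.91 to -0.70, but that does not reach a 2-fold change.

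Myd88 lies on the minus strand of chromosome 9 at 119335934 to 119341411, and its exons overlap those of Acaa1a, a peroxisomal thiolase gene, on the opposite strand. Whether reads were counted by strand was not given in the sources used here, and without strand the reads of the 2 genes cannot be told apart where they overlap. Acaa1a was at 168 and 181 TPM in NC, 138 and 145 in LPS, 125 and 120.5 in C498, and 99.9 and 102 in C498+LPS. It fell where Myd88 rose, by 0.30 in LPS vs NC (limma adjusted p = 0.0358), and fell with Myd88, by 0.48, in C498+LPS vs LPS (adjusted p = 0.0103).

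Tirap encodes the adaptor that links MYD88 to TLR4 at the plasma membrane, from chromosome 9 at 35184551 to 35200291 on the minus strand. Its level was 7.22 and 3.12 TPM in NC, 9.97 and 7.95 in LPS, 7.99 and 6.17 in C498, and 8.01 and 5.11 in C498+LPS. Each LPS sample exceeded each NC sample, but the NC samples differed from each other by more than the gap between the groups. The log2 change of 0.77 in LPS vs NC had a 95% interval of -0.06 to 1.60 (limma adjusted p = 0.148) and ran from 0.27 to 1.27 over the alternatives, passing under 4 of them. Tirap exons overlap those of Srpr on the opposite strand, which rose by 0.46 in the same comparison (adjusted p = 0.0245).

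Ticam1 encodes TRIF, the adaptor of the interferon branch, from the minus strand of chromosome 17 at 56269319 to 56276786. Its level was 13.5 and 14.6 TPM in NC, 14.1 and 12.4 in LPS, 18.8 and 17.9 in C498, and 13.2 and 12.98 in C498+LPS. The C498 samples were the 2 highest, and the samples of the other groups overlapped or lay next to each other. No comparison passed. The log2 change was 0.36 in C498 vs NC (95% interval 0.06 to 0.67, limma adjusted p = 0.106) and -0.46 in C498+LPS vs C498 (95% interval -0.76 to -0.15, adjusted p = 0.0556), and the latter passed in 3 of the 16 refits, with adjusted p from 0.0344 to 0.346.

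Ticam2 encodes TRAM, which couples TLR4 to TRIF. Its level was 19.4 and 13.6 TPM in NC, 27.5 and 21.6 in LPS, 15.3 and 14.5 in C498, and 21.4 and 16.6 in C498+LPS. LPS samples were above the NC samples, and the C498+LPS samples were above those of C498. The log2 change in LPS vs NC was 0.56 (95% interval 0.06 to 1.05, limma adjusted p = 0.0892), and 4 alternatives brought it past the test, with adjusted p from 0.0108 to 0.377. Exons of Ticam2 overlap those of Tmed7 on the same strand, so reads there may belong to either gene.

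Setting the adaptor of the interferon branch against that of the other branch, the ratio of Ticam1 to Myd88 was 0.179 and 0.200 in NC, 0.0785 and 0.0714 in LPS, 0.263 and 0.269 in C498, and 0.132 in both C498+LPS samples. The 4 groups did not overlap. LPS samples were lowest, C498 samples highest, and C498+LPS samples lay between LPS and NC. The log2 ratio in C498+LPS was 0.82 above that in LPS (exact two-sided permutation p = 0.333, the smallest possible).

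Irak2 encodes the kinase that sustains signalling through TRAF6 after the first wave, and lies on chromosome 6 at 113638467 to 113695026 on the plus strand. Its level was 45.6 and 33.5 TPM in NC, 78.0 and 70.5 in LPS, 50.0 and 42.9 in C498, and 48.1 and 41.8 in C498+LPS. The LPS samples were the 2 highest, and the samples of the other 3 groups overlapped. Irak2 rose by 0.91 on the log2 scale in LPS vs NC (SE 0.168, limma adjusted p = 0.00722), a ratio of 1.88, and without LPS replicate 1 the change was 0.84 with an adjusted p of 0.0581. In C498-treated cells the mean with LPS was 1.51 TPM below that without, and the log2 change was -0.05 with a 95% interval of -0.44 to 0.35. Against LPS alone, Irak2 was 39.5% lower in C498+LPS and fell by 0.71 (SE 0.168, adjusted p = 0.0285). That call was lost with no filter on low levels (adjusted p = 0.0698), with no variance trend (0.05001) and when any of the 6 samples of LPS, C498 or C498+LPS was left out (0.0535 to 0.172), though the log2 change stayed between -0.81 and -0.60.

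Irak3 encodes the inhibitory member of the family, and lies on chromosome 10 at 120141648 to 120202130 on the minus strand. Its level was 40.2 and 29.8 TPM in NC, 101 and 93.6 in LPS, 21.6 and 22.4 in C498, and 49.5 and 36.9 in C498+LPS. Irak3 had the widest spread of group means of the 10 genes, 2.10 on the log2 scale from C498 to LPS, and the samples of C498+LPS overlapped those of NC. It rose by 1.46 in LPS vs NC (SE 0.183, limma adjusted p = 0.00148), a ratio of 2.78, in all 16 refits. In C498-treated cells it rose by 0.93 (SE 0.183, adjusted p = 0.0173), a ratio of 1.96, from a lower start. The LPS increment was 62.3 TPM in vehicle and 21.2 TPM in C498, or 34.0% of the former. C498+LPS was 55.7% below LPS, and Irak3 fell by 1.17 (SE 0.183, adjusted p = 0.00671), with an adjusted p of 0.0599 without LPS replicate 1 and 0.0517 without C498+LPS replicate 2, where the log2 changes were -1.11 and -0.96.

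C498 without LPS gave Irak3 levels below both NC samples, with a log2 change of -0.63 and a 95% interval of -1.06 to -0.20. The limma adjusted p was 0.0587, and it ranged from 0.0127 to 0.236 over the alternatives, 4 of which brought it past the test. The difference in the LPS log2 change of Irak3 with and without C498 was -0.54 (95% interval -1.14 to 0.07, adjusted p = 0.511). Exons of Irak3 overlap those of Tmbim4 on the opposite strand, whose mean was 199.96 TPM in NC and 250.1 TPM in LPS (log2 change 0.32, adjusted p = 0.0515).

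Irak4 encodes the kinase that binds MYD88 first and activates the others, and lies on chromosome 15 at 94543643 to 94581815 on the plus strand, where its exons overlap those of Twf1 on the opposite strand. Its level was 22.1 and 16.4 TPM in NC, 14.2 and 11.8 in LPS, 16.7 and 14.3 in C498, and 10.7 and 8.68 in C498+LPS. Both LPS samples were below both NC samples, and both C498+LPS samples were below all others. The log2 change was -0.52 in LPS vs NC (95% interval -0.98 to -0.07, limma adjusted p = 0.0833) and -0.63 in C498+LPS vs C498 (95% interval -1.09 to -0.18, adjusted p = 0.0684), and neither passed. The former passed in 2 of the 16 refits, among them that without NC replicate 2, and the latter in 3, among them those without NC replicate 1 or NC replicate 2. The difference between these changes was -0.11, with an interval of -0.76 to 0.54.

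Within samples, the ratio of the inhibitory Irak3 to Irak4 was 1.82 in both NC samples, 7.13 and 7.95 in LPS, 1.29 and 1.56 in C498, and 4.64 and 4.25 in C498+LPS. The ratio of Irak2 to Irak4 was 2.07 and 2.04 in NC, 5.50 and 5.99 in LPS, 2.99 in both C498 samples, and 4.51 and 4.82 in C498+LPS. In both ratios LPS was highest, C498+LPS was next, and no groups overlapped. Between LPS and C498+LPS the log2 ratio differed by -0.76 for Irak3 to Irak4 and by -0.30 for Irak2 to Irak4, each with the smallest possible exact permutation p of 0.333. For C498 without LPS the 2 ratios lay on opposite sides of NC, Irak3 to Irak4 below and Irak2 to Irak4 above.

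**Figure D3:**
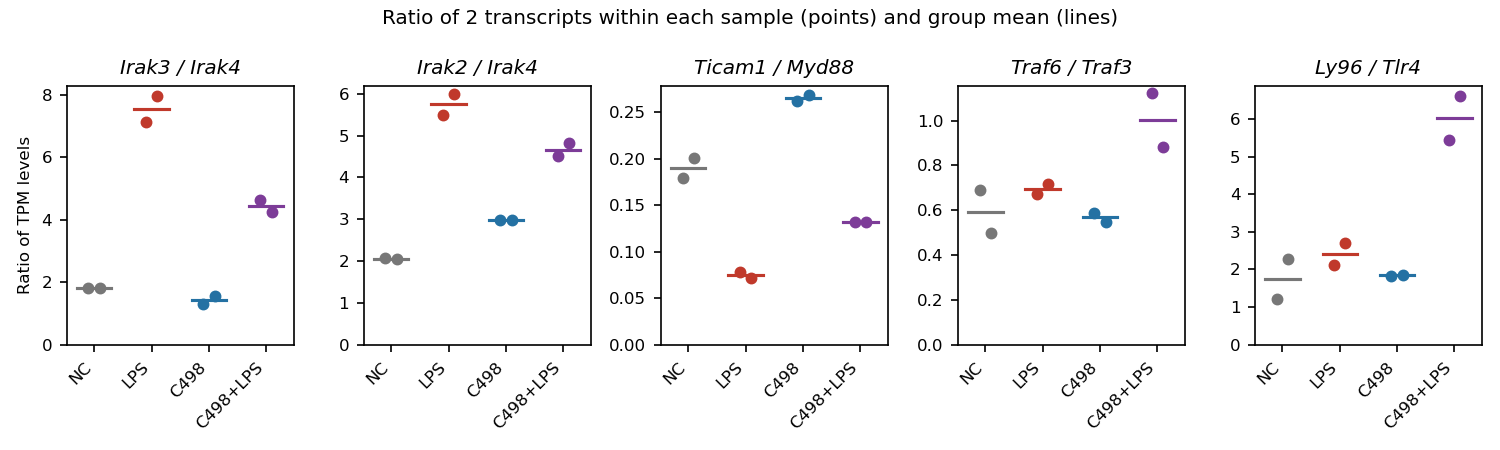
Ratio of 2 TPM levels within each sample (y axis, linear, from 0) by group (x axis), with points for samples and lines for group means, for Irak3 to Irak4, Irak2 to Irak4, Ticam1 to Myd88, Traf6 to Traf3 and Ly96 to Tlr4. The Irak3 to Irak4 means are 1.82 in NC, 7.54 in LPS, 1.43 in C498 and 4.44 in C498+LPS, and the Ly96 to Tlr4 mean is 6.02 in C498+LPS against 1.75 to 2.41 elsewhere.

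Traf3 encodes the ubiquitin ligase of the interferon branch, which also restrains MAP kinase signalling from MYD88, and lies on chromosome 12 at 111166370 to 111267153 on the plus strand. Its level was 14.8 and 9.41 TPM in NC, 15.7 and 10.7 in LPS, 19.5 and 19.0 in C498, and 10.8 and 11.1 in C498+LPS. The C498 samples were the 2 highest, and the other 3 groups overlapped. No comparison passed, with log2 changes of 0.13 in LPS vs NC (95% interval -0.44 to 0.69), 0.66 in C498 vs NC (0.10 to 1.23, limma adjusted p = 0.109) and -0.77 in C498+LPS vs C498 (-1.33 to -0.20, adjusted p = 0.0720). The last of these passed in 4 of the 16 refits.

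Traf6 encodes the ubiquitin ligase that relays the signal of the IRAK complex, and lies on chromosome 2 at 101678429 to 101701669 on the plus strand. Its level was 10.2 and 4.71 TPM in NC, 10.5 and 7.69 in LPS, 11.5 and 10.4 in C498, and 12.1 and 9.75 in C498+LPS. The NC samples spanned most of the range of the gene, and the samples of LPS, C498 and C498+LPS overlapped with them or with each other. No comparison passed, and the intervals were wide, from -0.42 to 1.07 around 0.33 in LPS vs NC and from -0.50 to 0.99 around 0.25 in C498+LPS vs LPS. The ratio of Traf6 to Traf3 was 0.689 and 0.501 in NC, 0.671 and 0.718 in LPS, 0.589 and 0.549 in C498, and 1.12 and 0.882 in C498+LPS. C498+LPS had the 2 highest ratios.

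Lists of other genes of the pathway were counted with the same test, against the same shares of all tested genes. Of 8 genes listed as receptor partners, 1 rose and 2 fell in LPS vs NC, and 2 rose and 4 fell in C498+LPS vs LPS. The list includes Tlr4 itself, one of the 4 that fell, and the receptor pair Cd180 and Ly86. Cd14, the protein that hands LPS to the receptor, rose by 2.41 with LPS, from 244 TPM on average to 1301 (SE 0.0796, limma adjusted p = 4.24e-06). Cd14 was also higher in C498+LPS, at 1795 TPM, a direction opposite to that of Myd88. Cnpy3, a TLR chaperone, fell by 1.21 with LPS, and Ly86, the partner of Cd180, fell by 0.46. In C498+LPS vs LPS, Cd180 fell by 1.19 and Unc93b1, the transporter of endosomal TLRs, fell by 0.79. C498 without LPS also lowered Cd180 by 0.94 and Unc93b1 by 0.48 (limma adjusted p = 0.00571 and 0.0246). Neither gene passed the test for a difference in the LPS change with C498.

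Of 12 other adaptors, IRAKs and TRAFs, 11 were tested, of which 4 rose and 1 fell in LPS vs NC and 1 rose and 4 fell in C498+LPS vs LPS. Traf1, an adaptor of TNF receptors, had the largest change with LPS, from 21.7 TPM on average to 255 (log2 change 3.50, SE 0.0964, limma adjusted p = 1.70e-06), and was at 143 TPM in C498+LPS. Traf5 rose by 1.73 with LPS, and Irak1bp1 fell by 1.41 from 3.37 to 0.64 TPM. In C498+LPS vs LPS, Traf4 rose by 2.25, from 2.07 to 13.6 TPM. The phosphoinositide 3-kinase adaptor Pik3ap1 fell by 1.31 and the TLR scaffold Scimp fell by 1.07. C498 without LPS also raised Traf4, by 1.56 (limma adjusted p = 0.00398). Pik3ap1 and Scimp did not pass in C498 vs NC, with log2 changes of -0.59 and -0.60. None of these genes passed the test for a difference in the LPS change with C498. The median log2 change of the 11 was 0.43 in the first comparison and -0.30 in the second.

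Among 25 downstream kinases and ubiquitin enzymes, 6 rose and 4 fell in LPS vs NC, and 0 rose and 6 fell in C498+LPS vs LPS, with medians of 0.12 and -0.39. Peli1, a ligase that acts on IRAKs, rose from 14.6 TPM on average in NC to 94.1 in LPS (log2 change 2.66, SE 0.272, limma adjusted p = 0.000628). Tank, a scaffold for TBK1, rose by 1.69, and Peli2 fell by 1.36. In C498+LPS vs LPS, the IKK subunit Ikbkg (NEMO) fell by 1.14, the kinase Ikbke by 1.00 and the TAK1 partner Tab1 by 0.72. C498 without LPS also lowered Ikbke by 0.68 and Tab1 by 0.73 (limma adjusted p = 0.0283 and 0.0462). Ikbkg did not pass in that comparison (log2 change -0.33). None of these genes passed the test for a difference in the LPS change with C498.

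Of 21 genes listed here as inhibitors of the pathway, 19 were tested, of which 7 rose and 3 fell in LPS vs NC. In C498+LPS vs LPS, 0 rose and 2 fell, and the medians were 0.26 and -0.06. The 7 include Birc3 (log2 change 0.80), which like Birc2 on the list is a ubiquitin ligase and not only an inhibitor. Tnfaip3, the deubiquitinating enzyme A20, rose from 27.7 TPM on average in NC to 182 in LPS (log2 change 2.69, SE 0.181, limma adjusted p = 9.73e-05), and its partner Tnip1 rose by 2.00. Tifab, an inhibitor of the TRAF6-binding protein TIFA, fell by 2.61. In C498+LPS vs LPS, Trafd1 fell by 0.68 and Tnip1 by 0.50, which are smaller changes than that of Irak3, the inhibitor among the 10 genes, although the difference between genes was not tested. Tmed7, whose exons overlap Ticam2, belongs to this list.

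**Figure D4:**
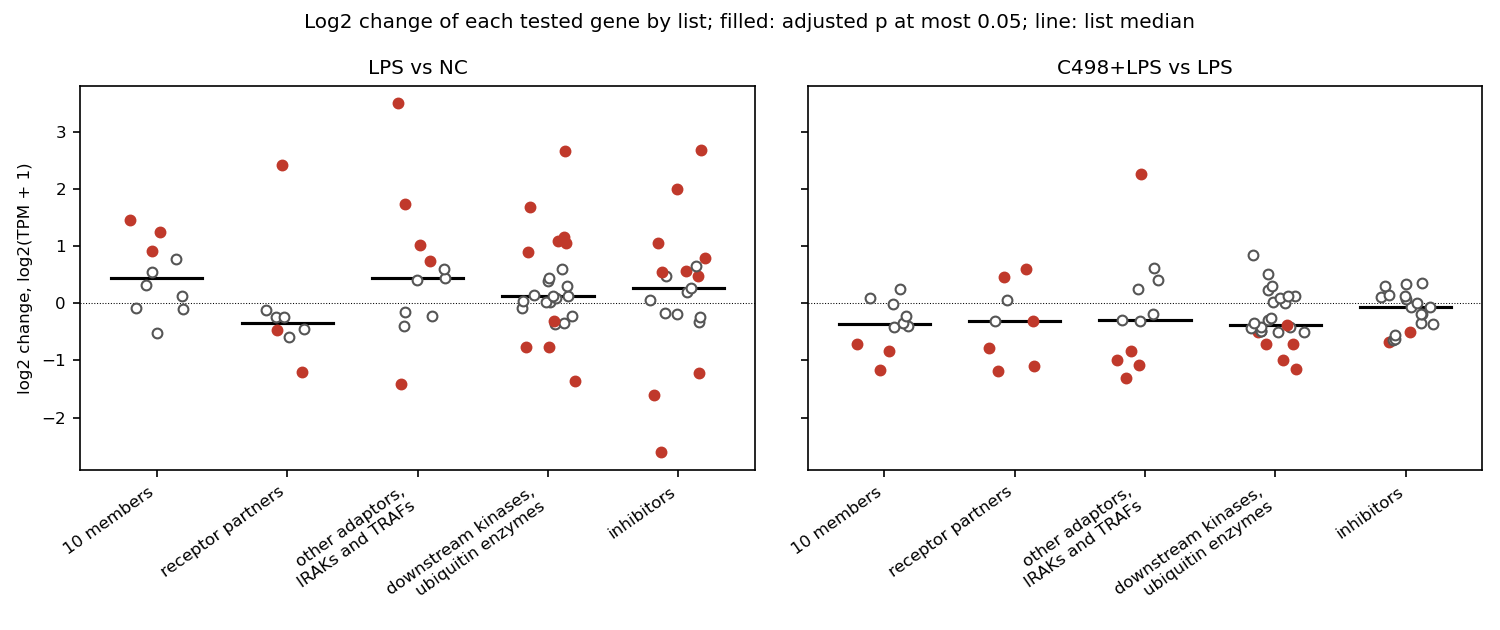
Log2 change on the log2(TPM + 1) scale (y axis) of each tested gene, by list (x axis), in the comparisons LPS vs NC and, beside it, C498+LPS vs LPS (panels), with filled points for a limma adjusted p of at most 0.05 and a line for the list median. The median of the 10 genes is 0.44 in the first panel and -0.37 in the second.

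For the 3 members with the widest range of group means, the tested genes with the most similar profile were sought by the root-mean-square distance of gene-centred log2(TPM + 1) values over the 8 samples. The nearest to Myd88 were Marchf5 (distance 0.0727), Igsf8 (0.0749) and Lmo4 (0.0845). Marchf5, a mitochondrial ubiquitin ligase, had means of 81.5 TPM in NC, 207 in LPS, 79.0 in C498 and 124 in C498+LPS. The nearest to Irak3 were 2310043P16Rik (0.0915), the acid phosphatase gene Acpp (0.0960) and the sialyltransferase gene St3gal3 (0.104). St3gal3 had means of 11.9, 39.6, 8.65 and 17.3 TPM in the same order of groups, which is the order of levels seen for Irak3. The nearest to Irak4 were 2010315B03Rik (0.0507), Gpr89 (0.0675) and Pira2 (0.0705), and Gpr89 had means of 9.56, 6.22, 7.50 and 5.12 TPM. The distances describe these 8 samples and were not tested.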

How the data were processed

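RNA from the 8 samples was converted to paired-end Illumina libraries. According to the submitters' processing notes and the study's methods, the authors used fastp to trim the reads, HISAT2 to align them, StringTie for transcript assembly and RSEM for quantification. Tool versions, genome build, annotation and the handling of strand were not given in the sources used here. The table that the authors deposited holds a TPM value for each gene in each sample, besides 4 columns of group means and a gene length column, which were not used. The authors' DESeq2 test needs counts, which were not analysed here, so limma 3.58.1 (R 4.3.3) was applied to the TPM values.

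Values were transformed as log2(TPM + 1). The 12189 genes with a mean of at least 1 TPM were fitted together, with a mean for each of the 4 groups and a variance trend, and p-values were adjusted within each comparison after Benjamini and Hochberg. The script was tested on simulated data for LPS vs NC. It recovered 47 of 100 genes with a true log2 change of 1 and 89 of 100 with one of 2, with 10 false calls. A gene that did not pass is therefore not shown to be unchanged. TPM values keep no depth, so counting error is known only through the replicates.

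All 10 genes were reported in each comparison. Of each further list, up to 3 genes with the largest change past the test were named for LPS vs NC and as many for C498+LPS vs LPS, with Tlr4 in any case and the 3 nearest profiles to the 3 members of widest range. The members and the lists were chosen with earlier results of these data known. Identifiers of the 10 genes matched GENCODE M21 on GRCm38. Alternatives were a pseudocount of 0.1, no filter, a filter at 5 TPM, centring, quantile normalization, only the groups compared, no variance trend, a replicate block, a 2-fold threshold and leaving out each sample. Figures were drawn with matplotlib 3.10.9.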

Additional observations from a re-analysis of the deposited data

Results flagged for a closer look

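Among the genes named from the pathway lists, Cd14 and Traf1 had LPS changes that differed with C498 by the limma interaction test. For Cd14 the log2 change to LPS was 2.41 in vehicle and 1.41 after C498, a difference of -1.001 (adjusted p = 0.0214). C498 without LPS raised Cd14 from a mean of 244 to 675 TPM, a log2 change of 1.47 (adjusted p = 0.000121), so the smaller LPS change started from a higher level and ended at a higher one. For Traf1 the log2 change to LPS was 3.50 in vehicle and 2.42 after C498, a difference of -1.08 (adjusted p = 0.0310), from similar levels of 21.7 and 25.9 TPM without LPS. Myd88 was the nearest of the 10 genes to passing the same test, with a difference of -0.73 and an adjusted p of 0.0681.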

How the results depend on the processing

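Centring on the sample median and quantile normalization each gave 5 of the 10 genes past the test in LPS vs NC (3 as reported) and 1 in C498 vs NC (0 as reported). Under centring and quantile normalization, in that order, the LPS vs NC log2 change turned to 0.0703 and 0.00522 for Ly96 and to 0.0922 and 0.0914 for Ticam1, and that of C498+LPS vs C498 turned to 0.10 and 0.11 for Tirap, 0.17 and 0.0686 for Irak2, and 0.20 and 0.22 for Traf6. None of them had passed the test in that comparison. A fold change of at least 2 as well left 0 of 10 in C498+LPS vs C498 and 1 in C498+LPS vs LPS. The replicate number as a block gave 6 in LPS vs NC, 4 in C498+LPS vs C498, 1 in C498 vs NC and 1 for the interaction, which was Myd88 (adjusted p = 0.0459). The labels do not say that a replicate number marks a shared animal or batch, and replicate differences correlated between groups with r of 0.0397 to 0.168 across genes, so the block was not taken as a pairing.

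Leaving out each sample in turn gave 2 to 6 genes in LPS vs NC, 0 to 5 in C498+LPS vs C498, 0 to 2 in C498 vs NC, 1 to 3 in C498+LPS vs LPS and 0 each time for the interaction. Log2 changes that turned sign in this way, none of which had passed, ran from -0.16 to 0.00944 for Ticam1, -0.17 to 0.43 for Traf3 and -0.16 to 0.81 for Traf6 in LPS vs NC. They ran from -0.39 to 0.17 for Tirap, -0.15 to 0.0614 for Irak2 and -0.15 to 0.13 for Traf6 in C498+LPS vs C498. They ran from -0.034 to 0.96 for Tirap and -0.36 to 0.12 for Ticam2 in C498 vs NC. They ran from -0.0917 to 0.26 for Ly96, -0.10 to 0.0692 for Ticam1 and -0.49 to 0.0249 for Traf3 in C498+LPS vs LPS. They ran from -0.47 to 0.00739 for Ticam2, -0.31 to 0.0938 for Irak4 and -0.82 to 0.15 for Traf6 for the difference in the LPS change. The lone sample left in a group was then assumed to vary like the other groups. With 2 samples per group, wide intervals for Tirap and Traf6 leave changes of up to 1.60 and 1.07 in LPS vs NC within the error, and the depth behind low levels is unknown.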
